A study of Drosophila melanogaster with 6 samples.

Results

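The genes described here are 10 components of the Drosophila melanogaster machinery that cuts, binds and senses double-stranded RNA, out of 16641 genes counted. They were taken by name: Dcr-2, r2d2, AGO2 and Hen1 form the small interfering RNA (siRNA) branch, Dcr-1, loqs, AGO1, drosha and pasha form the microRNA branch, and Sting stands for the STING signalling pathway. RNA was sequenced from heads of 3-day-old males kept at 18 C. The Adar5G1 mutant stock, whose strain label lists y and sc beside the Adar allele, gave 3 libraries, and w1118, the study's wild type and a white-eyed laboratory strain, gave 3. The labels do not describe the lesion of the allele. The labels give 1 strain for each genotype, so the Adar5G1 allele and the rest of the genetic background cannot be told apart. Nothing in the labels says that the 3 libraries of a genotype came from separate cultures, so the p-values reflect the spread among libraries alone, and that spread may be technical.

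Dicers are ribonucleases that cut long or hairpin double-stranded RNA into short duplexes. In flies Dcr-2, helped by the double-stranded RNA binding protein R2D2, makes and loads siRNAs into AGO2, and Hen1 methylates their ends; this branch defends against viruses and transposons. In the microRNA branch, Drosha with Pasha trims the primary transcript in the nucleus, Dcr-1 with Loquacious (loqs) cuts the hairpin, and AGO1 carries the microRNA. Adar deaminates adenosines in double-stranded RNA, so that it acts on the same kind of molecule as the Dicers. The comparison asks how the abundance of these transcripts differs between heads of the mutant and of the wild type.

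Counts over genes ranged from 7189944 to 21639081 in the Adar5G1 libraries and from 6872569 to 17709643 in the w1118 libraries. Nuclear ribosomal RNA and non-coding genes on scaffolds with no chromosome took 10.9% to 25.9% of the counts in Adar5G1 and 4.31% to 42.4% in w1118, the highest being w1118 replicate 3. As a check of the labels, 5, 1 and 19 fragments fell on Adar in Adar5G1 replicates 1, 2 and 3, against 2860, 6142 and 2602 in w1118 replicates 1, 2 and 3. Adar5G1 replicate 3 stood apart from the other mutant libraries, since its chi-square, divided by the degrees of freedom, was 22.4 against replicate 1 and 19.6 against replicate 2, where these had 6.66 between them.

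Marker lists of head tissues were summed in CPM (counts scaled to library size), and several differed between the genotypes. The 5 photoreceptor markers summed to 14949 to 17340 CPM in Adar5G1 and 18113 to 19823 CPM in w1118. For 4 of them the mutant libraries all lay below the w1118 libraries, as for 14.4% of all tested genes. Of these markers edgeR called 1 lower, the opsin gene Rh3 (fold change 0.709), where DESeq2 and limma-voom each called 3 lower. Over all tested genes edgeR called 5.13% lower and 8.82% higher. The 5 neuron markers summed to 4157 to 5092 CPM in Adar5G1 and 3622 to 4088 CPM in w1118. Only Syt1, a synaptic vesicle gene, was called higher (1.43-fold), averaging 1953 CPM in Adar5G1 and 1361 CPM in w1118. The neuron markers did not move together. The fold change was 1.08 for elav, 1.10 for brp and 0.947 for Syx1A, which all overlapped. It was 0.889 for nSyb, whose mutant libraries all lay below the w1118 libraries without a call. The 4 muscle markers summed to 4255 to 4907 CPM in Adar5G1 and 4594 to 5274 CPM in w1118, with the actin gene Act88F called lower (fold change 0.572). Of 17 alternatives, 7 ended the call of Syt1, 5 that of Act88F and 2 that of Rh3. None of the 4 glial markers (Gs2 0.929-fold) or the 3 tested hemocyte markers (Hml 0.596-fold) was called by edgeR; DESeq2 called 1 hemocyte marker lower, and Hml was called lower without w1118 replicate 2 (edgeR adjusted p = 0.0396).

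The fat body list (Lsp2, apolpp, Fbp1, Lsd-1) summed to 4341 to 5456 CPM in Adar5G1 and 2347 to 3752 CPM in w1118. Of its 4 tested genes 3 were called higher, beside 8.82% of all tested genes. Most of that sum was apolpp, with 4198 to 5166 CPM in Adar5G1 and 2312 to 3645 CPM in w1118, and its call was lost in 6 of 17 alternatives. Fbp1 had summed counts of 63 in Adar5G1 and 6 in w1118, so it was tested only through its level in the mutant, and its call was lost without w1118 replicate 2 (edgeR adjusted p = 0.0640). The lipid droplet gene Lsd-1 averaged 192.9 CPM in Adar5G1 and 22.7 CPM in w1118 and stayed called with each library left out. The germ line markers nanos, bam and bgcn summed to at most 0.443 CPM in Adar5G1 and 0.648 CPM in w1118.

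All 10 genes were detected in all 6 libraries and passed the filter on low counts. Levels were compared between genes as FPKM, which scales fragment counts by exon length and library size, with library sizes adjusted by the trimmed mean of M-values (TMM). The Argonaute transcripts led: AGO1 averaged 63.8 FPKM and AGO2 61.95 FPKM over the 6 libraries, and AGO1 was the higher of the pair in 3 of 6, so their order was not resolved. Then came loqs at 31.0 FPKM and Dcr-2 at 11.2 FPKM, and each of these steps down held in 6 of 6 libraries with no overlap of ranges.

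Below Dcr-2, drosha averaged 6.88, r2d2 6.28, pasha 5.08, Dcr-1 3.82 and Sting 3.34 FPKM, and each neighbouring pair in that order overlapped. Hen1 was lowest at 1.53 FPKM, below Sting in 6 of 6 libraries. The Dicers and Drosha, which cut the RNA, were less abundant as transcripts than the Argonautes in each library. Within a branch the Dicer to partner order differed: Dcr-2 was above r2d2 in each library, and Dcr-1 was below loqs in each library. The 3 Argonautes of the piRNA pathway, which silences transposons mainly in gonads, were lower still: aub averaged 0.898, AGO3 0.218 and piwi 0.187 FPKM.

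**Figure D1:**
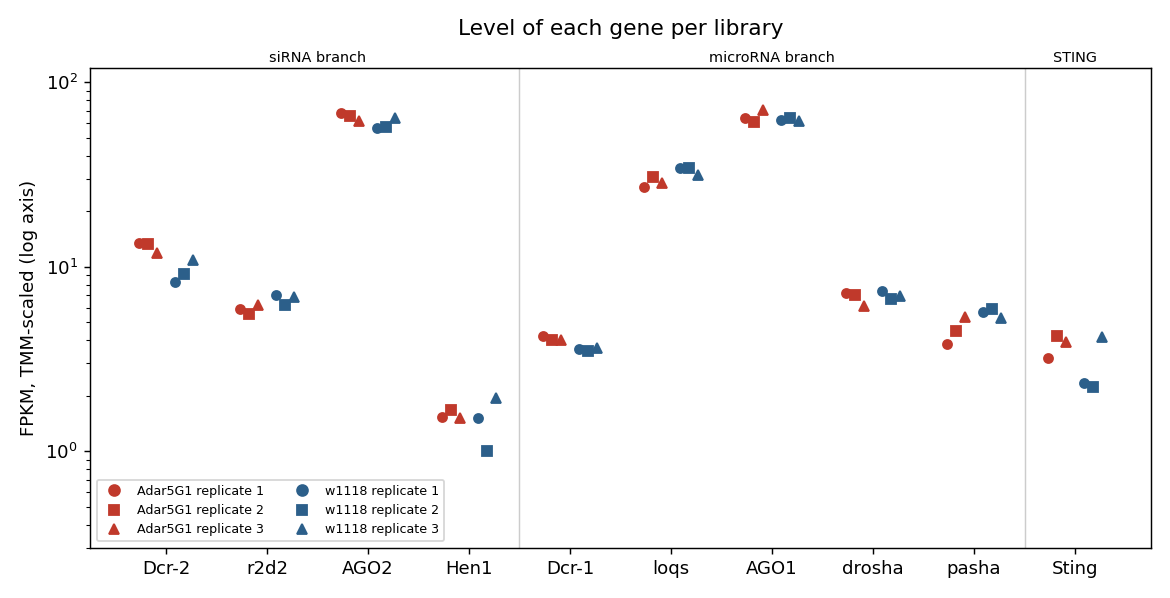
FPKM of each gene (log axis, TMM-scaled) in the Adar5G1 libraries (red, left of each pair) and the w1118 libraries (blue); symbols give the replicate. AGO1 and AGO2 lie at 56.3 to 70.5 FPKM, and Hen1 lies lowest, at 1.95 FPKM or less.

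Of the 10 genes, 1 was called higher in Adar5G1 and 0 were called lower at an adjusted p of 0.05 (edgeR quasi-likelihood test, adjusted over 10201 genes). Across all tested genes 13.9% were called, 8.82% higher (900) and 5.13% lower (523), so the share among these genes was near the background. With upper-quartile scaling the split over all genes was 812 higher and 764 lower. At an unadjusted p under 0.05 there were 2 higher and 1 lower, and DESeq2 and limma-voom each called 1 higher and 0 lower. In 4 of the 10 genes the libraries of the genotypes did not overlap, beside 31.6% of all tested genes. The median absolute log2 fold change was 0.18 over these genes and 0.17 over all tested genes.

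In the siRNA branch, Dcr-2 rose and the other members were not called. Dcr-2 (FBgn0034246, 2R:13462484-13469030, minus strand, dm3) had 76.5, 75.5 and 67.9 CPM in Adar5G1 replicates 1, 2 and 3, against 47.2, 52.2 and 61.9 CPM in w1118 replicates 1, 2 and 3. All mutant libraries lay above all wild-type libraries, and the closest pair was replicate 3 of each. Its level averaged 73.3 ± 4.73 CPM in Adar5G1 and 53.8 ± 7.44 CPM in w1118 (SD, n = 3 each), a fold change of 1.36 with a 95% interval of 1.15 to 1.61 (log2 0.45, SE 0.11, edgeR adjusted p = 0.0264). By p-value it ranked 1123 among the 10201 tested genes, and 79.9% of them had a smaller absolute fold change.

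Leaving out replicate 1 or 2 of either genotype ended this call, as did total counts only and the replicate block, while its log2 fold change stayed between 0.35 and 0.61 over 17 alternatives (adjusted p from 0.00352 to 0.537, edgeR, DESeq2 or limma). In whole heads, more cells of a type that expresses a gene and more transcript per cell cannot be told apart. Some photoreceptor, neuron, muscle and fat body markers differed between the genotypes as given above, the neuron markers in both directions. Their part in the Dcr-2 result was not tested.

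The partner r2d2 (FBgn0031951, 2L:7800147-7802098, plus strand) went the other way in its values, without being called. It had 11.07, 10.48 and 11.58 CPM in Adar5G1 and 13.23, 11.64 and 12.85 CPM in w1118. The groups did not overlap, by a margin of 11.58 against 11.64 CPM. Its fold change was 0.888 (95% interval 0.747 to 1.06, edgeR adjusted p = 0.388). Its values rested on 71 to 242 counts per library. On the opposite strand Cdc14 covers 431 of its 1879 exonic bases; the authors counted by strand, which keeps these genes apart.

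AGO2 (FBgn0087035, 3L:15547213-15554142, plus strand), the slicing Argonaute of the branch, had 280.5, 270.6 and 256.6 CPM in Adar5G1 and 233.4, 235.7 and 263.6 CPM in w1118. The groups overlapped, because w1118 replicate 3 lay above Adar5G1 replicate 3. Its fold change was 1.10 (95% interval 0.978 to 1.24, edgeR adjusted p = 0.286). The interval leaves out the estimate of 1.36 for Dcr-2 but overlaps the Dcr-2 interval of 1.15 to 1.61. A difference between AGO2 and Dcr-2 in fold change was not tested. Without both libraries numbered 3, an alternative added after seeing the data, AGO2 was called higher (log2 0.23, edgeR adjusted p = 0.0348).

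Hen1 (FBgn0033686, 2R:8033215-8040257, plus strand), the methyltransferase that protects the ends of AGO2-bound small RNAs, had 20 to 56 counts per library in Adar5G1 and 23 to 32 in w1118. That was 2.73, 2.95 and 2.68 CPM in Adar5G1 and 2.67, 1.77 and 3.45 CPM in w1118, with the w1118 libraries both lowest and highest. The fold change was 1.09 with a 95% interval of 0.705 to 1.68, so neither a rise nor a fall of the size seen for Dcr-2 could be detected with these libraries.

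**Figure D2:**
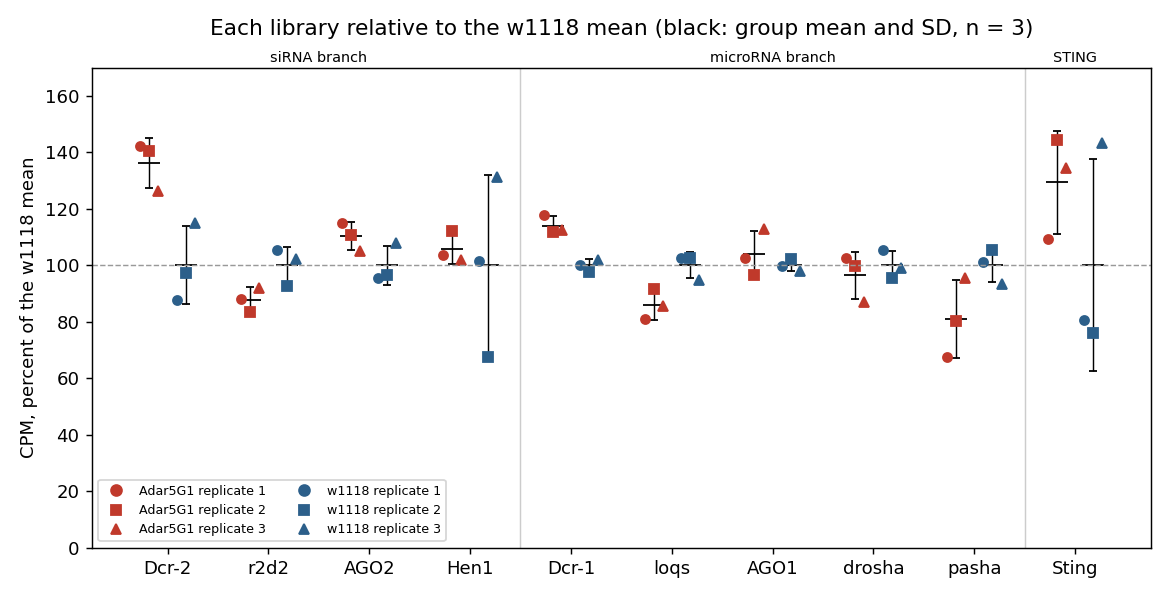
CPM of each gene as a percentage of the w1118 mean, for the Adar5G1 (red, left of each pair) and w1118 libraries (blue), with group mean and SD in black (n = 3). Dcr-2 lies at 126% to 142% in Adar5G1 and 87.9% to 115% in w1118, while Hen1 and Sting spread most among the w1118 libraries.

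In the microRNA branch 0 of 5 members were called in either direction by edgeR, DESeq2 or limma-voom. Over all tested genes edgeR called 13.9%, so 0 of 5 does not set this branch apart. At an unadjusted edgeR p under 0.05 there were 1 higher and 1 lower. The higher one was Dcr-1 (FBgn0039016, 3R:18559729-18566813, minus strand), with 29.1, 27.6 and 27.7 CPM in Adar5G1 and 24.7, 24.1 and 25.2 CPM in w1118. Its libraries were the tightest of the 10 genes in both groups, with coefficients of variation of 2.96% in Adar5G1 and 2.13% in w1118, and they did not overlap. The fold change was 1.14 (95% interval 1.01 to 1.30, edgeR adjusted p = 0.169).

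The lower one was loqs (FBgn0032515, 2L:13382652-13385671, plus strand), whose protein isoforms serve Dcr-1 and, for one isoform, Dcr-2; counts per gene do not separate them. An antisense RNA gene, asRNA:CR44599, covers 420 of its 2290 exonic bases. It had 61.7, 69.9 and 65.3 CPM in Adar5G1 and 78.3, 78.4 and 72.2 CPM in w1118. All mutant libraries lay below all wild-type libraries. The fold change was 0.858 (95% interval 0.761 to 0.968, edgeR adjusted p = 0.0984), and with upper-quartile scaling, which moved the median of all genes to -0.06 on the log2 scale, it was called lower (adjusted p = 0.0487).

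AGO1 (FBgn0262739, 2R:9830892-9845594, minus strand) had the most counts of these genes, 3394 to 12202 per library. It had 531.4, 500.8 and 583.9 CPM in Adar5G1 and 516.5, 529.7 and 507.6 CPM in w1118. The groups overlapped, with Adar5G1 replicates 2 and 3 at the bottom and the top. The fold change was 1.04 (95% interval 0.918 to 1.18, edgeR adjusted p = 0.715).

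The Microprocessor genes, which act first in the branch, were not called either. Drosha's gene drosha (FBgn0026722, 2R:3819934-3824345, plus strand) had 30.8, 29.95 and 26.1 CPM in Adar5G1 and 31.7, 28.6 and 29.8 CPM in w1118. Adar5G1 replicate 3 was lowest and the other mutant libraries lay within the wild-type range, with a fold change of 0.962 (95% interval 0.827 to 1.12). Its cofactor pasha (FBgn0039861, 3R:27443699-27447939, plus strand) had 12.2, 14.5 and 17.2 CPM in Adar5G1 and 18.2, 19.0 and 16.8 CPM in w1118. Adar5G1 replicate 3 lay within the wild-type range, and the other mutant libraries lay below it. The fold change of pasha was 0.813 (95% interval 0.651 to 1.02, edgeR adjusted p = 0.223), and without both libraries numbered 3 it was called lower (log2 -0.50, adjusted p = 0.0459). Without Adar5G1 replicate 1 its log2 fold change was -0.17, and without Adar5G1 replicate 3 it was -0.46, against -0.30 with all libraries (edgeR adjusted p = 0.507 and 0.0512 without these libraries). Exons of pasha share 82 of 3214 bases with kek6 on the same strand, where fragments were counted for both genes.

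**Figure D3:**
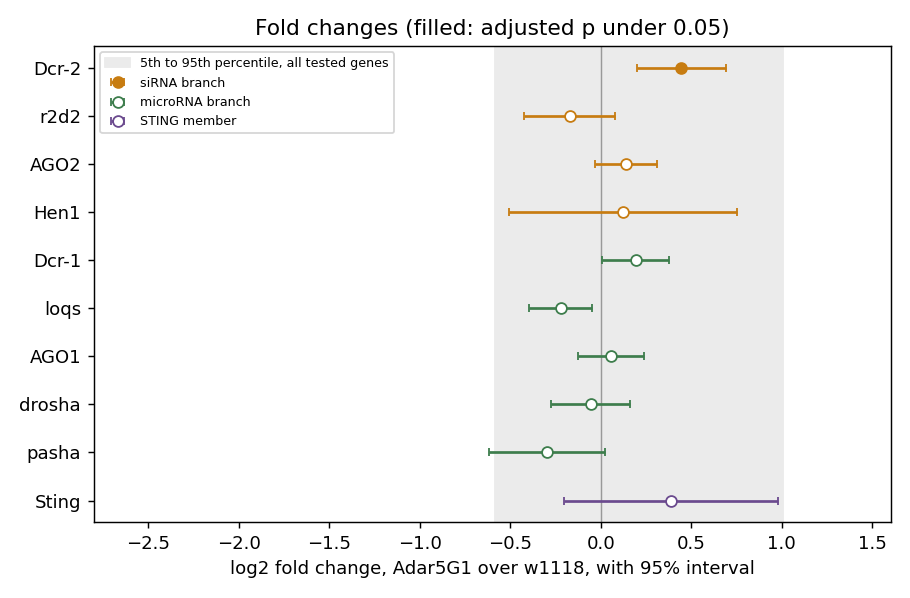
Log2 fold change of each gene, Adar5G1 over w1118, with 95% intervals; a filled point marks an adjusted p under 0.05. Grey spans the 5th to the 95th percentile of all tested genes, -0.58 to 1.01, and each of the 10 estimates lies inside it.

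The branches were then set against each other. The median log2 fold change was 0.13 over the 4 siRNA genes and -0.06 over the 5 microRNA genes, beside -0.00028 over all tested genes; no test was made of these medians. Within each branch members lay on both sides of no change, with 3 of 4 siRNA genes above it and 3 of 5 microRNA genes below it. The siRNA median was -0.021 without w1118 replicate 2, 0.28 without w1118 replicate 3 and 0.32 without both libraries numbered 3. The microRNA median ran from -0.11 without Adar5G1 replicate 1 to -0.0049 without Adar5G1 replicate 3.

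A closer contrast pairs each siRNA gene with its microRNA counterpart inside a library, where library scaling cancels. Dcr-2 had 3.20, 3.33 and 2.98 times the length-scaled counts of Dcr-1 in Adar5G1, and 2.32, 2.63 and 2.99 times in w1118. The mutant libraries were higher except that w1118 replicate 3 slightly exceeded Adar5G1 replicate 3. The difference of mean log2 ratios was 0.26 (exact permutation test, 2-sided, p = 0.2, and p = 0.6 adjusted over 3 ratios; the smallest p that 3 against 3 allows is 0.1). It was 0.17 without w1118 replicate 1 and 0.36 without w1118 replicate 3. As a share of the Dicer transcripts per length, Dcr-2 made up 76.2%, 76.9% and 74.9% in Adar5G1 and 69.9%, 72.5% and 74.9% in w1118.

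The ratio of r2d2 to loqs was 0.219, 0.183 and 0.216 in Adar5G1 and 0.206, 0.181 and 0.217 in w1118. Both genotypes covered nearly the same range, and the difference of mean log2 ratios was 0.03 (exact permutation p = 0.6). AGO2 to AGO1 stood at 1.05, 1.08 and 0.878 in Adar5G1 and at 0.903, 0.889 and 1.04 in w1118. Replicates 1 and 2 of the mutant were above those of the wild type and replicate 3 was below it, and the difference of mean log2 ratios was 0.09 (exact permutation p = 0.5). With single libraries left out it ran from 0.033 (Adar5G1 replicate 2) to 0.18 (Adar5G1 replicate 3). A difference between the branches was therefore not resolved by any of the 3 ratios with this number of libraries.

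**Figure D4:**
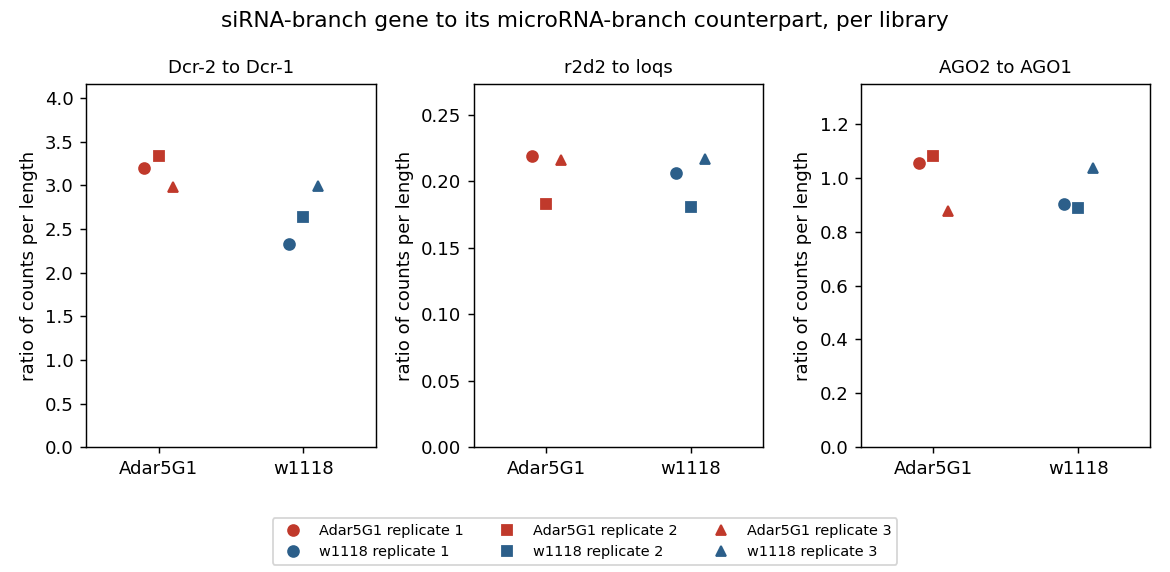
Ratio of length-scaled counts of each siRNA-branch gene to its microRNA-branch counterpart, per library; each axis starts at 0. The Dcr-2 to Dcr-1 ratio is 2.98 to 3.33 in Adar5G1 and 2.32 to 2.99 in w1118, and the other ratios overlap more widely.

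Sting (FBgn0033453, 2R:5730191-5733017, plus strand) encodes the membrane adaptor that binds cyclic dinucleotides made by cGAS-like receptors. It had 5.02, 6.64 and 6.17 CPM in Adar5G1 and 3.71, 3.49 and 6.58 CPM in w1118. All mutant libraries lay above w1118 replicates 1 and 2, but w1118 replicate 3 was as high as the mutant. The fold change was 1.31 (95% interval 0.870 to 1.97, edgeR adjusted p = 0.399), on 32 to 129 counts per library. Without w1118 replicate 3 the log2 fold change was 0.72 against 0.39 with it (adjusted p = 0.0592), and without w1118 replicate 2 it was 0.18.

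Several genes placed around Sting rose. Of 8 tested genes of the cGLR-STING list 4 were called higher and 0 lower, by edgeR, DESeq2 and limma-voom alike. Their median log2 fold change was 0.75. Over all tested genes edgeR called 8.82% higher. The list was chosen with earlier results of these data known, so its share describes the listed genes and is not a test. The list had 11 names, and cGlr1, Nazo and Srg2 had too few counts to be tested. Srg1 had summed counts of 169 in Adar5G1 and 19 in w1118, so it entered the test through its level in the mutant. The part of the tissue markers that moved with genotype in these values was not tested.

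Rel, the NF-kappaB factor that acts downstream of IMD and of STING, had 132.4, 155.1 and 135.2 CPM in Adar5G1 and 70.4, 71.6 and 83.9 CPM in w1118, a 1.87-fold rise (edgeR adjusted p = 7.17e-04). The secreted antiviral factor gene Vago, whose induction by virus needs Dcr-2, had 13.4, 17.0 and 11.7 CPM in Adar5G1 and 6.38, 3.99 and 7.23 CPM in w1118, a 2.42-fold rise (adjusted p = 0.00843). The virus-induced gene vir-1 had 314.9, 290.1 and 313.9 CPM in Adar5G1 and 192.0, 181.1 and 230.9 CPM in w1118, a 1.52-fold rise (adjusted p = 0.00486). For these 3 genes all mutant libraries lay above all w1118 libraries, as for 17.1% of all tested genes. These genes were named because they were called, so the separation adds no evidence.

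Srg1, named because it is the remaining call of the list, had 6.28, 1.77 and 3.45 CPM in Adar5G1 and 0.116, 0.720 and 0.540 CPM in w1118 (log2 2.93, SE 0.57, adjusted p = 0.0106). The tested genes of the list without a call were key (fold change 0.995), IKKbeta (1.04), cGlr2 (0.860) and Srg3 (1.92). Srg3 had summed counts of 93 in Adar5G1 and 44 in w1118 (edgeR adjusted p = 0.153). Its mutant libraries all lay above the w1118 libraries, as for 17.1% of all tested genes. The list call count was 3 or 4 over 17 alternatives. The call of vir-1 was lost with total counts only, and that of Srg1 with the replicate block.

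Partners that load, process or act with the small RNAs were not called. Of 14 tested chaperones, nuclease subunits and complex partners of the Argonautes 0 were called by edgeR, DESeq2 or limma-voom, with 0 higher and 2 lower at an unadjusted p under 0.05, and their median log2 fold change was -0.04; over all tested genes 13.9% were called. With upper-quartile scaling 2 were called lower, and without Adar5G1 replicate 3 there was 1 called higher. The most abundant was the loading chaperone gene Hsp83, with 518.1, 563.6 and 525.9 CPM in Adar5G1 and 558.4, 758.2 and 571.1 CPM in w1118, overlapping between the genotypes. Its fold change was 0.851 (edgeR adjusted p = 0.275), and its log2 fold change of -0.23 was -0.080 without w1118 replicate 2, its highest library.

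Of 19 tested genes of microRNA export, trimming, tailing, deadenylation and decapping 0 were called by edgeR, DESeq2 or limma-voom, and 0 had an unadjusted p under 0.05 in either direction, beside the same 13.9% of all genes. Their median log2 fold change was 0.01. The gene with the highest CPM, not scaled by length, was mei-P26, which encodes a growth-regulating protein that associates with AGO1; its fold change was 1.04, and the direction flipped with upper-quartile scaling, without replicate 3 of either genotype and without both. Of 5 tested genes of other double-stranded RNA binding proteins and of the deaminase Adat1, again 0 were called by edgeR, DESeq2 or limma-voom and 0 had an unadjusted p under 0.05, against that background. The RNA localisation gene stau, the most abundant of them, had a fold change of 1.09 (edgeR adjusted p = 0.380).

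In the piRNA list 1 of 12 tested genes was called higher and 0 lower, a share near the 8.82% of all tested genes called higher. The called gene was qin, which encodes a Tudor-domain protein of the pathway, with 10.04, 8.26 and 9.71 CPM in Adar5G1 and 3.48, 4.38 and 6.58 CPM in w1118. No library overlapped, and the rise was 1.97-fold (edgeR adjusted p = 0.0175). The replicate block ended its call (adjusted p = 0.0548), as did leaving out Adar5G1 replicate 1, w1118 replicate 1 or w1118 replicate 2. The list had 22 names, of which 20 were matched and 12 had enough counts to be tested.

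**Figure D5:**
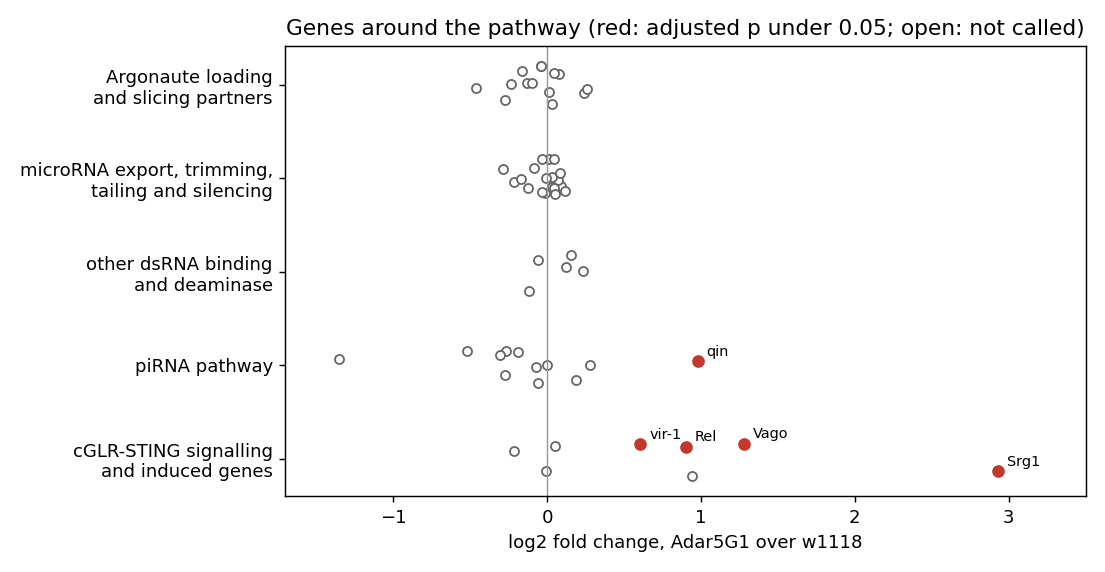
Log2 fold changes, Adar5G1 over w1118, of the tested genes in 5 lists around the pathway; each point is a gene, red where the adjusted p was under 0.05 and open otherwise, with vertical scatter for legibility only. The called genes are qin (0.98), vir-1 (0.61), Rel (0.90), Vago (1.28) and Srg1 (2.93).

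The transcripts whose profile over the 6 libraries was most like that of Dcr-2 were PIG-V, Mccc1 and Phb1. Likeness was the root-mean-square difference of mean-centred log2(CPM + 1) values, which was 0.034, 0.040 and 0.040 for these genes. PIG-V (FBgn0265174) had 7.83, 7.97 and 6.56 CPM in Adar5G1 and 4.64, 5.10 and 6.37 CPM in w1118. As for Dcr-2, its replicates numbered 3 were the closest pair across the genotypes. None of the 3 was called in the comparison (fold changes 1.38, 1.36 and 1.33, edgeR adjusted p = 0.115, 0.0742 and 0.0584).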

How the data were processed

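RNA from heads was sequenced as 75-bp paired ends, per the labels. The deposited values are fragment counts per gene, made by the authors with featureCounts 1.4.5-p1, reverse-stranded, on FlyBase release 5.53, per the file headers; a fragment over several genes counted for each. TopHat and dm3 are named in the submitters' processing notes. Of 16641 IDs 15924 matched a symbol. The row without a gene ID (0.369% to 0.633% of counts) was left out.

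Counts were tested with edgeR 4.0.16 in R 4.3.3: filterByExpr (minimum 10), TMM, quasi-likelihood F test by genotype, Benjamini-Hochberg adjustment, threshold 0.05. Standard errors are the absolute log2 fold change over the square root of F, approximate. Alternatives used DESeq2 1.42.0, limma-voom (limma 3.58.1), other scalings and filters, robust dispersion, the replicate block, removal of ribosomal and mitochondrial rows, and each library left out. The test was tried on simulated data. Ratios used SciPy 1.17.1.

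The genes and lists were chosen with earlier results of these data known. Named genes are all 10 genes, Adar, up to 3 called genes per other list with the smallest p or its tested gene with the highest CPM, and the 3 most like Dcr-2. Srg1, Srg3, aub, AGO3, piwi, key, IKKbeta and cGlr2, and the other tissue markers, were named after their values were seen. The list names Hsc70-4, Ge-1, vas and squ were not matched.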

Additional observations from a re-analysis of the deposited data

How the results depend on the processing

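Over 17 alternative fits, 7 of the 10 genes kept their direction in each. AGO1 turned to -0.0011 (log2) with upper-quartile scaling, -0.021 without both libraries numbered 3, and ran from -0.0049 to 0.11 with single libraries left out. Drosha's gene drosha was 0.017 without both libraries numbered 3 and ran from -0.11 to 0.021 with single libraries left out, and Hen1 from -0.15 to 0.37. The median of all genes moved by at most 0.06. All-gene calls were 582 higher and 209 lower with total counts only, 812 higher and 764 lower with upper-quartile scaling, and ran from 545 to 1024 higher and from 331 to 515 lower with single libraries left out, the lowest of both without w1118 replicate 1. The calls among the 10 genes were 0 higher with total counts only, 0 to 1 higher and 0 lower with single libraries left out, 1 lower with upper-quartile scaling, and 2 higher and 1 lower without both libraries numbered 3, a choice made after seeing the data. The microRNA-branch median was -0.11 with upper-quartile scaling, and the siRNA-branch median ran from -0.021 to 0.28 with single libraries left out and was 0.32 without both libraries numbered 3. The r2d2 to loqs difference ran from -0.042 to 0.12 with single libraries left out. The gene mei-P26 was -0.0070 with upper-quartile scaling and -0.19 without both libraries numbered 3, and ran from -0.11 to 0.14 with single libraries left out. The causes were not tested.

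For same-numbered libraries the correlations of deviations from the group means were 0.0915, -0.171 and -0.270 for replicates 1, 2 and 3. For differently numbered libraries they ran from -0.158 (Adar5G1 replicate 1 with w1118 replicate 2) to 0.314 (Adar5G1 replicate 3 with w1118 replicate 2). The numbers therefore gave no sign of a pairing, but 3 libraries per group cannot exclude a pairing. With the replicate block 484 genes were higher and 278 lower, and 0 of the 10 genes were called. The lowest counts in a library were 20 for Hen1 and 32 for Sting.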

Other observations

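In both branches the Dicer transcript stood higher relative to its double-stranded RNA binding partner in the mutant; these ratios were chosen after the values were seen and were not tested. Dcr-2 had 2.28, 2.38 and 1.94 times the length-scaled counts of r2d2 in Adar5G1 and 1.18, 1.48 and 1.59 times in w1118. Dcr-1 stood at 0.156, 0.131 and 0.141 of loqs in Adar5G1 and at 0.105, 0.102 and 0.115 in w1118. Neither ratio overlapped between the genotypes. That follows from the CPM given above, where both Dicers lay above and both partners below w1118 in all mutant libraries, so it adds no evidence. The ratio of pasha to drosha overlapped, with 0.528, 0.644 and 0.878 in Adar5G1 and 0.768, 0.886 and 0.754 in w1118. AGO2 had 5.03, 4.91 and 5.19 times the length-scaled counts of Dcr-2 in Adar5G1 and 6.78, 6.19 and 5.85 times in w1118. The lower AGO2 to Dcr-2 ratio in each mutant library follows from the CPM given above and adds no evidence. The ratios of pasha to drosha and of AGO2 to Dcr-2 were also chosen after the values were seen and were not tested.

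Among the w1118 libraries, replicate 3 had the highest level of Dcr-2, AGO2, Hen1, Dcr-1 and Sting and the lowest of loqs, AGO1 and pasha. It also had the largest share of ribosomal and unplaced non-coding counts, 42.4%, and the part of that share in these levels was not tested.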
